A study of Homo sapiens with 24 samples.

Results

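The ion and phosphate solute carriers described here are the protein-coding genes whose GENCODE symbols start with SLC4A, SLC8A, SLC8B, SLC9A, SLC9B, SLC12A, SLC13A, SLC20A, SLC24A, SLC26A or SLC34A. This rule on the symbol alone gave 63 genes of the 19266 protein-coding genes in the count table, and 3 of the 63 (*SLC4A1AP*, *SLC9A3R1* and *SLC9A3R2*) carry such a symbol without being carriers. A549, an established human cell line from a lung adenocarcinoma, was exposed to 100 nM dexamethasone (dex), a synthetic glucocorticoid (GC), in ethanol, or to an equal volume of the vehicle ethanol (EtOH, 0.02% of the medium). Exposure lasted 1, 3, 5, 7, 9 or 11 hours before poly-A RNA was sequenced, with 2 libraries labelled as biological replicates in each of the 12 groups, 24 libraries in all. The labels do not say whether the replicates were separate cultures, so p-values may measure a partly technical spread. All cells are of 1 line, and RNA from bulk cells cannot tell fewer cells of a kind apart from less RNA per cell.

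These carriers move sodium, potassium, calcium, chloride, bicarbonate, sulfate and phosphate across membranes and so set cell volume, pH and salt transport. In airway epithelium, the sodium-potassium-chloride cotransporter NKCC1 and the sodium-bicarbonate cotransporters load chloride and bicarbonate from the basal side for secretion, while the sodium-hydrogen exchangers remove acid. GCs act through the glucocorticoid receptor (GR), which binds DNA and changes transcription, and they are known to raise sodium uptake by lung epithelium.

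Libraries held between 6708864 and 13748598 counts (median 10109393.5), and the 63 genes took 0.117% to 0.134% of them with EtOH and 0.125% to 0.155% with dex at 3 to 11 hours. The dex library of 1 hour, replicate 2, was the smallest, and its most counted transcript took 4.77% of its counts, the highest such share of all libraries. Between replicates the biological coefficient of variation ran from 6.48% at 7 hours to 12.7% at 11 hours. The targets of GCs *FKBP5*, *TSC22D3*, *PER1* and *KLF9* were all higher with dex at each time point from 3 to 11 hours, and 3 of the 4 at 1 hour. All 5 epithelial markers had enough counts to be tested, and with dex at 5 hours *KRT8*, *KRT18* and *CDH1* were higher (log2 fold changes 1.302, 1.06 and 0.65) and *EPCAM* and *KRT19* lower (-0.85 and -0.57). The summed level of 6 lung epithelial markers was only 0.296 to 1.41 CPM (counts scaled to library size) with EtOH, with *NKX2-1* at 2 counts at most in any library and *SFTPA1* at 0. Summed levels in any library were under 4 CPM for 4 markers of leukocytes and at most 1.06 CPM for 2 of endothelium. Those of 4 fibroblast markers were 6.38 to 23.3 CPM, most of it *COL1A1*. With dex *COL1A1* was higher at 3 hours (log2 fold change 0.56), lower at 5, 7 and 9 hours (-1.21, -1.03 and -1.36) and not called at 11 hours (-0.21). The part of these marker changes in the results was not tested.

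Of the 63 genes, 39 had enough counts to be tested and 24 did not, the latter with 10 counts or fewer in every library. None of the 5 SLC13A genes (sodium-coupled sulfate and carboxylate transporters) or of the 3 SLC34A genes (sodium-coupled phosphate transporters of kidney, gut and alveolar type II cells) was tested. *SLC34A2*, the lung member, had at most 5 counts in a library, and *SLC12A1*, the kidney's NKCC2, had 0 in all 24. Counting error alone allows an expected count of up to about 3 over the 24 libraries together. *SLC9A3*, the exchanger of absorptive epithelia, reached 10. The tested genes were 9 of 11 SLC4A, 9 of 11 SLC9A, 6 of 9 SLC12A, 6 of 11 SLC26A, 3 of 5 SLC24A, 1 of 3 SLC8A, the only SLC8B gene and both genes each of SLC20A and SLC9B.

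Without dex, levels per length spanned nearly 3 orders of magnitude. Divided by the kilobases of their transcripts, the highest were the phosphate importer *SLC20A1* at 56.4 ± 4.38 CPM per kilobase (SD, n = 12 EtOH libraries), the sulfate transporter *SLC26A2* at 39.5 ± 3.92 and the sodium-bicarbonate cotransporter *SLC4A7* at 25.7 ± 2.04. They were followed by *SLC4A1AP* at 19.8 ± 1.62, the anion exchanger *SLC4A2* at 18.4 ± 2.07 and *SLC12A2* (NKCC1) at 18.0 ± 2.02 CPM per kilobase, and these 3 lay within their spread of each other. The lowest tested gene was the plasma membrane sodium-calcium exchanger *SLC8A1* at 0.0746 ± 0.0244 CPM per kilobase.

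**Figure D1:**
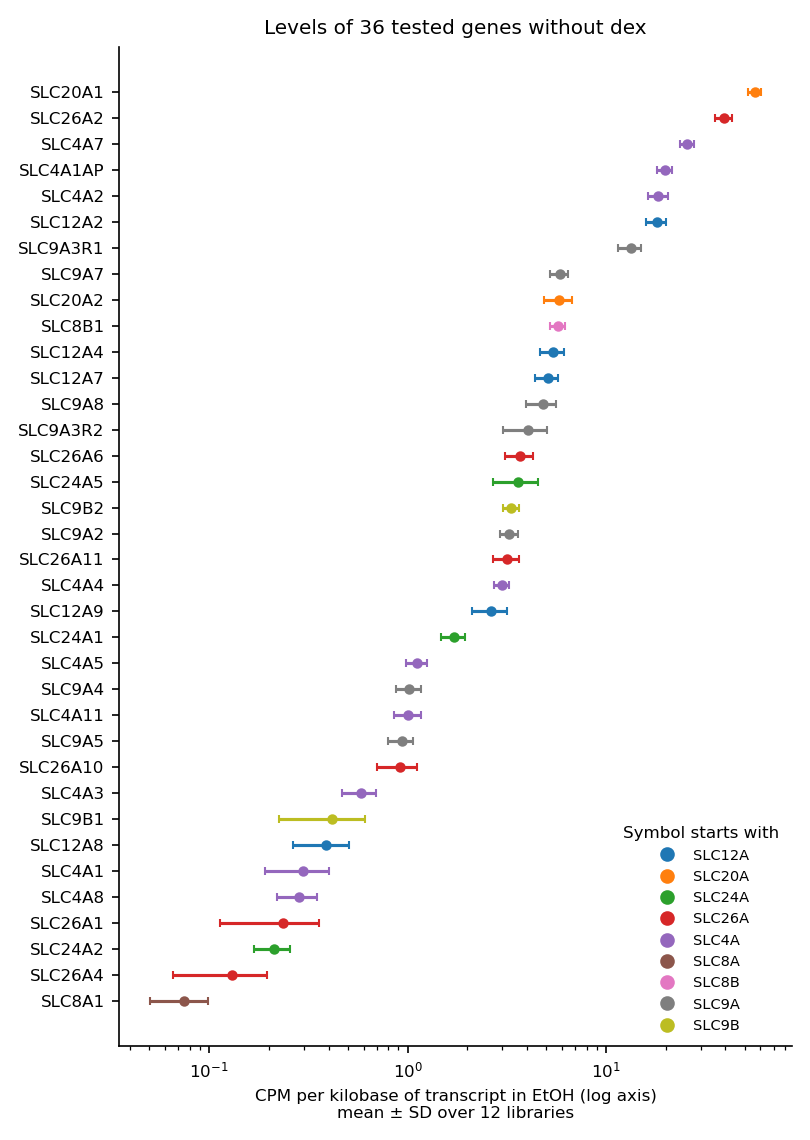
Level of 36 of the 39 tested genes with EtOH, in CPM per kilobase of transcript on a log axis, as mean ± SD over 12 libraries, with colours for the symbol family. *SLC20A1*, *SLC26A2* and *SLC4A7* lie highest, at 56.4, 39.5 and 25.7, and *SLC8A1* lowest at 0.0746.

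At each single time point dex changed at most 14 of the 39 tested genes, in both directions from 3 hours on. A gene was called where edgeR's quasi-likelihood test of the 2 dex against the 2 EtOH libraries of a time point gave an adjusted p of at most 0.1 over all 19897 features tested. At 1 hour, edgeR called none of the 39 genes (0.864% of all features were called, 0.523% higher and 0.342% lower), as did DESeq2, and 2 of the 39 had an unadjusted p under 0.05. At 3 hours 7 were called, 17.9% of the 39 against 12.9% of all features, with 3 higher (7.66% of all features) and 4 lower (5.29%). At 5 hours 14 were called, 35.9% against 23.1%, with 4 higher (11.2% of all features) and 10 lower (11.9%). The 12 calls of 7 hours made 30.8% against 25.8%, with 5 higher (13.4% of all features) and 7 lower (12.4%). By 9 hours 10 were called, 25.6% against 18.2%, with 3 higher (9.79% of all features) and 7 lower (8.42%). At 11 hours 6 were called, 15.4% against 8.58%, with 4 higher (5.31% of all features) and 2 lower (3.27%). Lower calls were thus more frequent than higher ones among the 39 genes from 3 to 9 hours. These shares describe 39 genes, and their difference from the background was not tested.

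The median log2 fold change of the 39 genes was 0.09 at 1 hour, 0.10 at 3 hours, -0.01 at 5 hours, -0.11 at 7 hours, -0.05 at 9 hours and 0.12 at 11 hours, while that of all features lay within 0.01 of 0. In all, 20 genes were called at some time, 51.3% of the 39 against 41.5% of all features. Of them, 6 were higher at every call (15.4% against 20.1% of all features) and 14 lower at every call (35.9% against 20.1%). These differences were not tested either. They comprised 6 SLC4A, 6 SLC9A, 2 SLC12A, 2 SLC26A, and 1 each of SLC20A, SLC24A, SLC8A and SLC8B, and 3 of the 20 are the non-carriers. Without the dex library of 1 hour, replicate 2, the genes called there, *SLC26A2*, *SLC12A2* and *SLC24A5*, had log2 fold changes of 0.42, 0.36 and 0.80. These values rest on 1 dex library, and the share of all features called in that fit is not given.

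**Figure D2:**
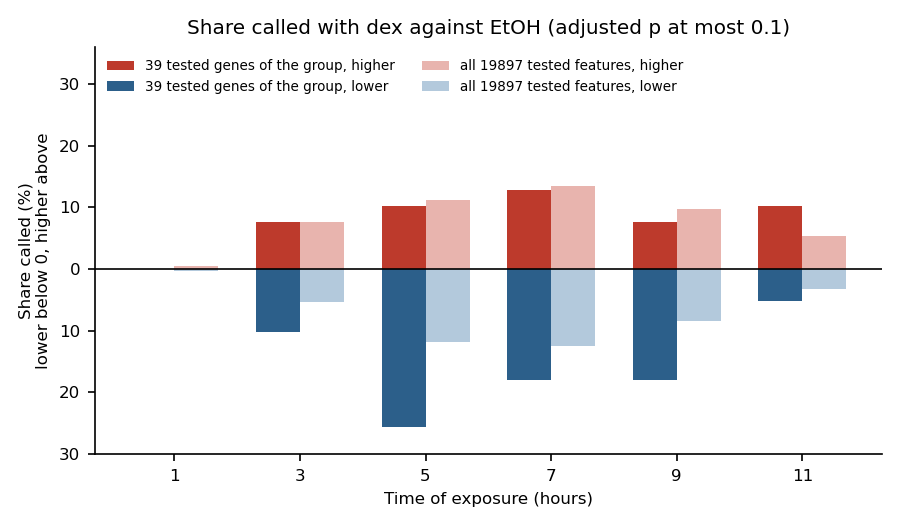
Percent of the 39 tested genes (dark bars) and of all 19897 tested features (pale bars) called higher (above 0) or lower (below 0) with dex at each time point. The share of the 39 genes called lower was largest at 5 hours, with 10 genes, against 11.9% of all features.

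**Figure D3:**
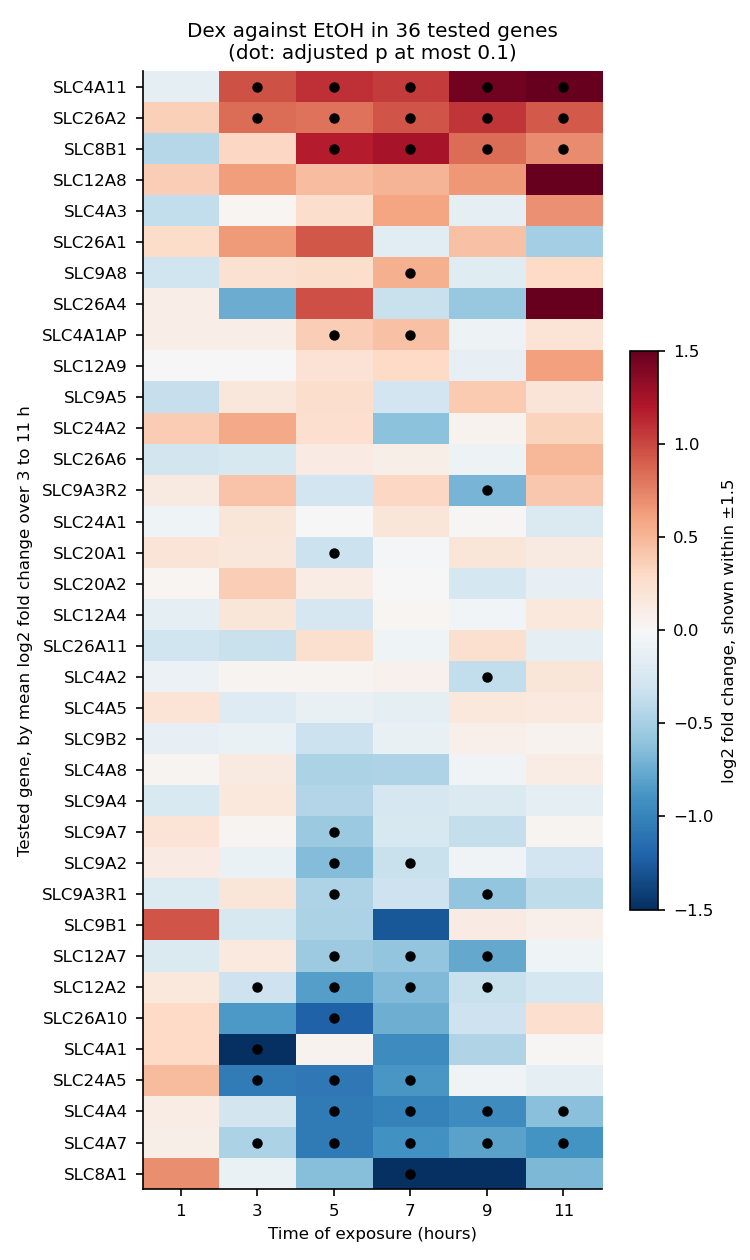
Log2 fold change of dex against EtOH for 36 of the 39 tested genes (rows, ordered by their mean over 3 to 11 hours) at each time of exposure (columns), with colours limited to ±1.5 and a dot where the adjusted p was at most 0.1. *SLC4A11*, *SLC26A2* and *SLC8B1* head the rows and carry dots at 4 or 5 times, and *SLC4A4* and *SLC4A7* near the foot carry dots at 4 and 5 times.

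*SLC26A2*, which encodes a sulfate transporter of the plasma membrane that supplies the sulfate for proteoglycans, rose with dex at every time from 3 to 11 hours. On GRCh38 its gene spans chromosome 5 from 149960737 to 149993455 (plus strand). At 9 hours the dex libraries stood at 675 and 603 CPM and the EtOH libraries at 357 and 257 CPM. Both dex libraries were above both EtOH libraries there and at each of the other 4 called times. Groups without overlap, in either direction, were common, at 34.8% of all tested features at 1 hour and 45.1% to 57.0% from 3 to 11 hours. The 9-hour means of *SLC26A2*, 639 ± 50.5 and 307 ± 71.1 CPM (SD, n = 2), differed by 1.07 on the log2 scale (standard error 0.145, adjusted p = 0.000171). Every adjusted p given is edgeR's, corrected by the method of Benjamini and Hochberg over all features.

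The log2 fold changes of *SLC26A2* at 3, 5, 7 and 11 hours were 0.83, 0.82, 0.94 and 0.92, with adjusted p-values of 7.37e-08, 1.61e-08, 9.92e-13 and 0.00201. No omission of a library and no other setting ended any of these calls. At 1 hour the dex libraries (392 and 356 CPM) were already above the EtOH libraries (308 and 280 CPM), by 0.35 on the log2 scale with a standard error of 0.109, which was not called (adjusted p = 0.264). It was called with the replicate number as a block (0.35, adjusted p = 0.00431) and without dex replicate 2 (0.42, adjusted p = 0.00227). *SLC26A2* alone held 22.3% to 28.1% of the counts of the 63 genes with EtOH and 36.5% to 45.7% with dex at 3 to 11 hours. The summed level of the other 62 genes was 892 to 958 CPM with EtOH and 779 to 927 CPM with dex at those times. Of its exonic bases, 2.86% overlap *TIGD6* on the other strand, which had log2 fold changes of 0.10, -0.53, 0.29, -0.33 and -0.17 from 3 to 11 hours without a call.

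**Figure D4:**
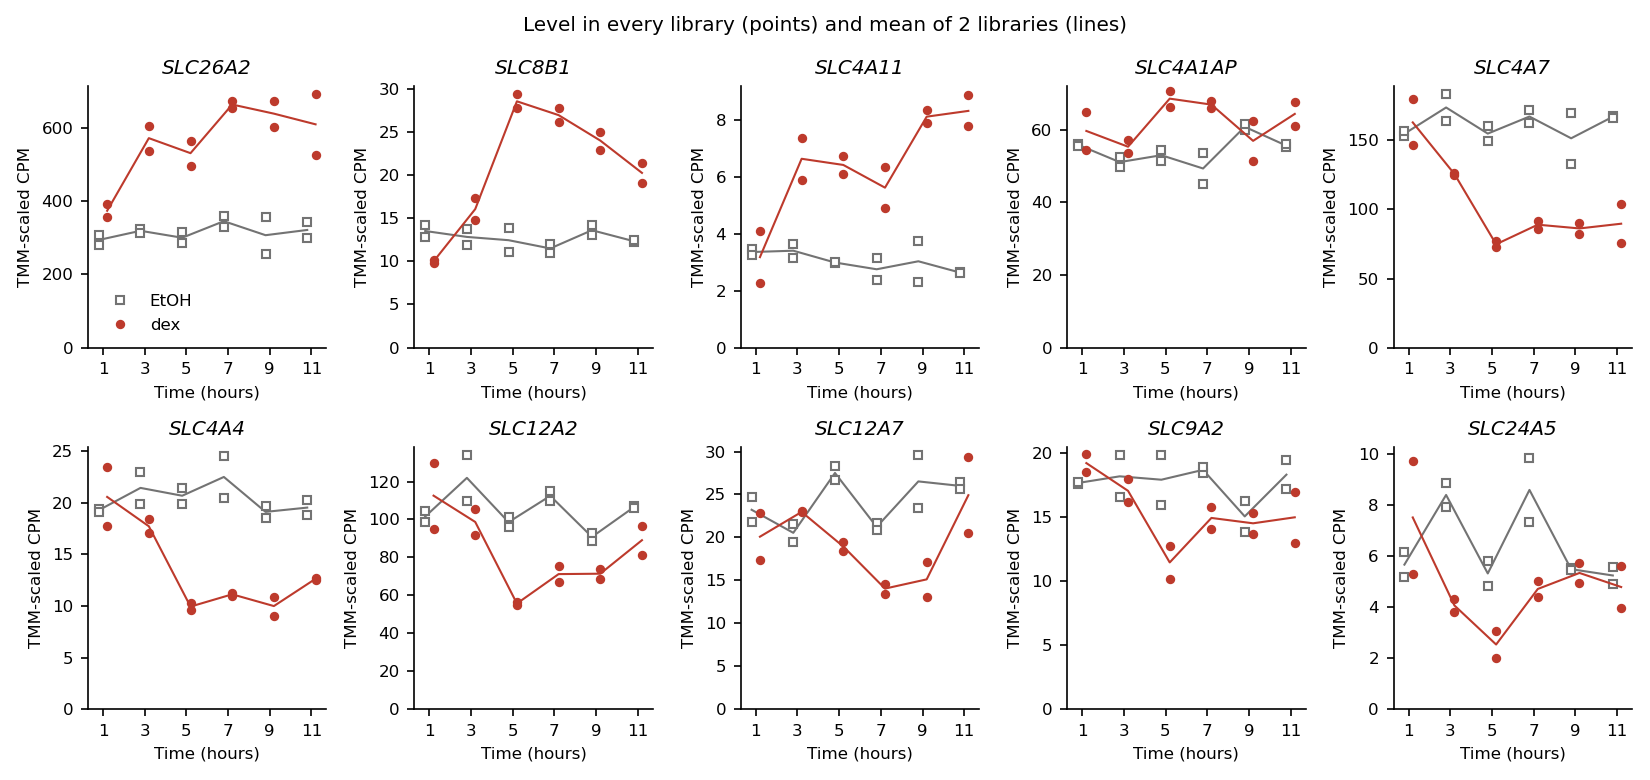
TMM-scaled CPM against time of exposure in hours for the 10 genes called at 2 or more consecutive times, with squares for EtOH libraries, filled circles for dex libraries and lines through the means of 2 libraries. The dex circles of *SLC26A2* and *SLC4A11* lie above the squares from 3 to 11 hours, and those of *SLC4A7* lie below them.

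In the SLC4A family the bicarbonate cotransporters *SLC4A7* and *SLC4A4* were lower with dex, while *SLC4A11*, which is related by sequence but not known as a bicarbonate carrier, was higher. *SLC4A7* encodes NBCn1, an electroneutral sodium-bicarbonate cotransporter that brings base into the cell (chromosome 3, 27372721 to 27484420, minus strand). At 5 hours it had 76.9 and 72.7 CPM in the dex libraries against 149 and 160.4 CPM in the EtOH libraries. The groups stood well apart, and dex libraries were below EtOH libraries at all 5 called times. At 5 hours this made -1.06 on the log2 scale (standard error 0.11, adjusted p = 3.79e-11), and the changes at 3, 7, 9 and 11 hours were -0.48, -0.91, -0.80 and -0.90. These calls held under every setting tried and without any 1 library.

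The sequences directly upstream of *SLC26A2* and *SLC4A7* are shown because these genes were called at the same 5 times in opposite directions. They are from the promoter windows of RefSeq on GRCh38.p14, 5′ to 3′ on the strand of the gene, in lower case, with the bases that a GENCODE 29 transcript holds left out. Capitals would mark a motif that was searched, and there are none.
*SLC26A2*, chr5:149960508-149960736, plus strand: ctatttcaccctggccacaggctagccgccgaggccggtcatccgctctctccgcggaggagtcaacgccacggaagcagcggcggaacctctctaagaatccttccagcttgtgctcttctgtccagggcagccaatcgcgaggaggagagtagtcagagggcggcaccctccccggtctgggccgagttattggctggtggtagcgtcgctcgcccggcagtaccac
*SLC4A7*, chr3:27484421-27484634, minus strand: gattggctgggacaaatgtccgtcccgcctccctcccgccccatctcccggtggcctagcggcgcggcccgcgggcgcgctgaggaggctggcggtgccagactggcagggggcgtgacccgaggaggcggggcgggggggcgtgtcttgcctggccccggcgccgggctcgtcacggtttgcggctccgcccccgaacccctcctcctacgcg

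The motifs searched, on both strands of the 250 bases before each start, were the GR palindrome, the single GR element AGAACA (the palindrome holds it on both strands) and the cAMP response element TGACGTCA. Windows were found for 51 of the 63 genes, 76 windows in all. The element AGAACA was in 12 of these windows (15.8%), against 12.4% of the 35116 windows of all genes. Of the 16 called genes with a window, *SLC4A7* (in a second window inside the gene) and *SLC8A1* had one. No window of the 63 genes held the palindrome, which 0.00285% of all windows held, or TGACGTCA, which 1.65% held. These matches describe letters in short windows and say nothing of binding.

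*SLC4A4* encodes NBCe1, the electrogenic sodium-bicarbonate cotransporter of the basolateral membrane (chromosome 4, 71062667 to 71572087). At 5 hours its levels were 10.3 and 9.62 CPM with dex against 19.9 and 21.5 CPM with EtOH. The dex libraries of 5, 7, 9 and 11 hours were all below the EtOH libraries of the same time. On the log2 scale the change was -1.06 at 5 hours (standard error 0.17, adjusted p = 2.93e-06), -1.01 at 7 hours, -0.94 at 9 hours and -0.63 at 11 hours (adjusted p = 0.0687). The call at 9 hours was lost without dex replicate 2 (-0.79), and that at 11 hours without either EtOH library (-0.57 and -0.69), with DESeq2 (-0.64), with the most counted transcript (-0.65) and at a threshold of 0.05.

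*SLC4A11*, a member of the family whose mutations cause corneal endothelial dystrophy, was low but rose at 5 successive times (chromosome 20, 3227417 to 3239559). At 11 hours it had 8.85 and 7.76 CPM with dex (101 and 86 counts) and 2.64 and 2.63 CPM with EtOH (21 and 24 counts). No dex library from 3 to 11 hours fell to the level of an EtOH library of its time. The log2 fold change was 0.95 at 3 hours, 1.09 at 5 hours, 1.05 at 7 hours, 1.45 at 9 hours and 1.65 at 11 hours (standard error 0.27 and adjusted p = 0.00135 at 11 hours).

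Leaving out dex replicate 1 ended the call of *SLC4A11* at 7 hours (0.82). Its most counted transcript holds 27.5% of its counts, and that transcript alone was not called at 3 hours (0.64) or 5 hours (1.00), nor was the gene at 3 hours with DESeq2 (0.95). *SLC4A2*, the widespread chloride-bicarbonate exchanger AE2, was called lower at 9 hours alone (-0.37). *SLC4A1*, the band 3 anion exchanger of red cells, was called lower at 3 hours alone (-1.59), on 3 and 6 counts in the dex libraries and 10 and 19 in the EtOH libraries. Both of these calls were lost with the most counted transcript (-0.42 and -1.39), at a threshold of 0.05 and without some libraries. That was so for *SLC4A2* without either dex library (-0.32 and -0.42), and with DESeq2 (-0.37), and for *SLC4A1* without dex replicate 1 (-1.28) or EtOH replicate 2 (-1.23).

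Among the cation-chloride cotransporters, *SLC12A2* and *SLC12A7* were lower with dex in the middle of the series. *SLC12A2* encodes NKCC1, the basolateral cotransporter that loads chloride for secretion and helps cells regain volume (chromosome 5, 128083766 to 128189688). At 5 hours its levels were 54.6 and 56.7 CPM with dex and 96.0 and 101 CPM with EtOH. Replicates differed little and the groups did not overlap. It was lower by a log2 fold change of -0.83 at 5 hours (standard error 0.11, adjusted p = 4.92e-08) and -0.66 (adjusted p = 2.47e-07) at 7 hours.

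The changes of *SLC12A2* at 3 and 9 hours were smaller, -0.31 and -0.33, and less stable. The first was lost without dex replicate 1 (-0.21) or EtOH replicate 1 (-0.15), with the replicate number as a block (-0.31, adjusted p = 0.153) and in 1 fit over 24 libraries (-0.30), and the second without either dex library (-0.27 and -0.39). Both were lost with DESeq2 (-0.32 and -0.33), with the most counted transcript (-0.35 and -0.35) and at a threshold of 0.05. At 11 hours the change of -0.26 was not called.

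*SLC12A7* encodes KCC4, a potassium-chloride cotransporter that lets potassium and chloride out of swollen cells (chromosome 5, 1050376 to 1112035). At 9 hours its levels were 13.0 and 17.2 CPM with dex against 23.4 and 29.6 CPM with EtOH. The dex libraries were the lower ones, with a wider spread between replicates than at 5 or 7 hours. The log2 fold changes were -0.54, -0.59 and -0.77 at 5, 7 and 9 hours (adjusted p = 0.00419, 0.00147 and 0.0065), and the call at 9 hours was lost without dex replicate 1 (-0.60). At 11 hours the log2 fold change was -0.07. *SLC12A4*, *SLC12A8* and *SLC12A9* of the same family were called at no time. *SLC12A8* was higher with dex by 0.37 to 1.51 on the log2 scale at the 6 times, the largest value at 11 hours (adjusted p = 0.109), at 1.71 to 2.37 CPM with dex and 0.438 to 1.01 CPM with EtOH.

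The sodium-hydrogen exchangers were called in both directions. *SLC9A2* encodes NHE2, an exchanger of epithelial cells (chromosome 2, 102619707 to 102711318). At 5 hours its levels were 12.8 and 10.2 CPM with dex against 16.0 and 19.9 CPM with EtOH. The dex libraries were below the EtOH libraries, with a difference of -0.66 on the log2 scale (standard error 0.17, adjusted p = 0.00463), a call that was lost without EtOH replicate 2 (-0.47). The call at 7 hours (-0.33, adjusted p = 0.0936) was lost under 6 of the other settings, the replicate block among them (adjusted p = 0.102), and without either dex library or EtOH replicate 2 (-0.24, -0.41 and -0.32).

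Exchangers of internal membranes were called at 1 time each, *SLC9A8* and *SLC9A7*. *SLC9A8* (NHE8) was higher at 7 hours, with 36.9 and 37.9 CPM with dex against 24.1 and 27.4 CPM with EtOH, a log2 fold change of 0.54 (adjusted p = 0.000379). *SLC9A7* (NHE7, of the Golgi network) was lower at 5 hours by 0.56 on the log2 scale (a log2 fold change of -0.56, adjusted p = 0.00937), which fell short without EtOH replicate 1 (-0.30). *SLC9A4*, *SLC9A5*, *SLC9B1* and *SLC9B2* were called at no time.

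Among the calcium exchangers, the mitochondrial one rose. *SLC8B1* encodes NCLX, which lets calcium out of mitochondria in exchange for sodium (chromosome 12, 113298759 to 113359493). At 7 hours it had 27.8 and 26.1 CPM with dex against 10.96 and 12.02 CPM with EtOH. Dex libraries were above EtOH libraries at 5, 7, 9 and 11 hours, while at 1 hour they had been below them, at a log2 fold change of -0.43 that was not called.

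The log2 fold change of *SLC8B1* was 1.18 at 5 hours (adjusted p = 4.3e-08), 1.23 at 7 hours (standard error 0.14, adjusted p = 6.76e-09), 0.83 at 9 hours (adjusted p = 0.00158) and 0.71 at 11 hours (adjusted p = 0.0401). Without either EtOH library the change at 11 hours was not called (0.70 and 0.72), nor was it with DESeq2 (0.71). Its counts are spread over 11 transcripts, of which the most counted holds 21.7%, and that transcript alone was not called at 9 hours (0.65) or 11 hours (0.50).

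*SLC24A5*, a potassium-dependent sodium-calcium exchanger of pigment organelles, was counted at low levels (chromosome 15, 48120972 to 48142672). At 5 hours it had 3.05 and 2.01 CPM with dex (28 and 18 counts) against 4.82 and 5.82 CPM with EtOH (47 and 70 counts). The groups did not overlap at 3, 5 or 7 hours, the called times, as in 50.6%, 54.4% and 57.0% of all features. The log2 fold changes were -1.04, -1.08 and -0.88 (adjusted p = 0.00123, 0.0047 and 0.00262), the last of them not called without dex replicate 1 (-0.78). Of its exonic bases, 32.9% overlap exons of *MYEF2* on the other strand, which itself was lower at 5 hours by a log2 fold change of -0.75 (adjusted p = 1.13e-05) and at 7 hours by -0.76. At 3 hours *MYEF2* had -0.28 and was not called (adjusted p = 0.165). Whether strand was used in counting is not given in the sources used here, so reads of these genes cannot be told apart.

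*SLC8A1*, the plasma membrane sodium-calcium exchanger NCX1, was called lower at 7 hours alone, on 3 and 2 counts in the dex libraries and 7 and 16 in the EtOH libraries. The call, at -2.01 on the log2 scale (standard error 0.69, adjusted p = 0.034), was lost without dex replicate 1 (-2.04), dex replicate 2 (-1.99) or EtOH replicate 2 (-1.31). *SLC26A10* was called lower at 5 hours alone (-1.22, adjusted p = 0.0435), on 8 counts in each dex library and 18 and 27 in the EtOH libraries. That call was lost without any 1 of 3 libraries, both of dex (-1.20 and -1.23) and EtOH replicate 2 (-1.05), with DESeq2 (-1.22) and with the most counted transcript (-1.30). Of its exonic bases, 50% (2136) overlap exons of *B4GALNT1* on the other strand, which was lower at 5 hours by a log2 fold change of -0.65 (adjusted p = 0.000474). Reads of *SLC26A10* and *B4GALNT1* cannot be told apart either.

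*SLC20A1* encodes PiT1, a sodium-phosphate importer, and was the most abundant of the 39 genes per length. At 5 hours it had 158 and 144 CPM with dex against 190.0 and 187 CPM with EtOH. The dex libraries were the lower ones at this time alone, at -0.32 on the log2 scale (standard error 0.10, adjusted p = 0.0173), a call that was lost without dex replicate 2 (-0.26). At 11 hours the dex libraries (196 and 203 CPM) lay above the EtOH libraries (182 and 179 CPM), a log2 fold change of 0.14 that was not called. *SLC20A2* (PiT2) was called at no time.

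The 3 genes that share a symbol prefix but are not carriers were all called at some time. *SLC4A1AP*, which encodes kanadaptin, a protein first found bound to a kidney anion exchanger, had 67.7 and 66.0 CPM with dex against 44.9 and 53.7 CPM with EtOH at 7 hours. Both dex libraries were higher, and the gene rose by 0.44 on the log2 scale (standard error 0.10, adjusted p = 0.000967). At 5 hours the change was 0.36 (adjusted p = 0.0167), which was lost without dex replicate 2 (0.32) or EtOH replicate 1 (0.33). The exons of *SUPT7L* on the other strand overlap 7.11% of its exonic bases, and *SUPT7L* was not called at either time.

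*SLC9A3R1* (NHERF1), the scaffold that ties exchangers and channels to ezrin under the apical membrane, was lower at 5 hours (-0.46, adjusted p = 0.0279) and 9 hours (-0.59, adjusted p = 0.0208). The first call was lost without dex replicate 2 (-0.36) or EtOH replicate 1 (-0.42) and with DESeq2 (-0.46), the second without either dex library (-0.50 and -0.70). *SLC9A3R2* (NHERF2) was lower at 9 hours alone (-0.69, adjusted p = 0.0798). It was lost without either dex library (-0.54 and -0.94) or EtOH replicate 2 (-0.46), with DESeq2 (-0.71), at a threshold of 0.05 and with the most counted transcript, for which the value was -0.05.

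Of the 39 tested genes, 19 were called at no time, with log2 fold changes from -1.27 (*SLC9B1* at 7 hours) to 1.75 (*SLC26A4* at 11 hours). Among the more abundant of them, *SLC12A4* and *SLC20A2* had medians of 19.9 and 18.7 CPM with EtOH and log2 fold changes between -0.26 and 0.37. The 2 extreme values above are of genes with medians of 0.613 and 0.615 CPM with EtOH.

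A fit over all 24 libraries tested whether the dex effect itself differed among the 6 time points. It was called for 10 of the 39 genes, against 13.8% of all features, and these were *SLC8B1*, *SLC4A7*, *SLC4A4*, *SLC12A2*, *SLC24A5*, *SLC20A1*, *SLC4A11*, *SLC12A7*, *SLC9A8* and *SLC9A7*. *SLC26A2* was not among them, with an adjusted p of 0.101 just over the threshold of 0.1. The effect at 11 hours differed from that at 5 hours for *SLC20A1* alone, against 2.41% of all features. Among the 12 EtOH libraries, *SLC24A5* (adjusted p = 0.0742) and *SLC9A3R2* (adjusted p = 0.0998) varied over time, against 3.18% of all features.

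Other genes of ion and phosphate transport give the setting. At 5 hours, 11.2% of all features were called higher and 11.9% lower. Differences of the lists below from these shares were not tested. Of 14 genes of kinases and ubiquitin ligases that act on these carriers and of their partner proteins, 13 were tested. Of these, 5 were higher and 1 lower at 5 hours, with a median log2 fold change of 0.20. *SGK1*, the kinase that GCs induce and that spares sodium channels from degradation, was already higher at 1 hour (0.57, adjusted p = 0.0332) and by 1.22 at 5 hours. *WNK1*, the upstream kinase of the cascade that switches NKCC1 on, was higher at 5 hours by 0.57 (adjusted p = 2.32e-05). Its effector kinases *STK39* and *OXSR1* were higher by 0.32 and 0.32 (adjusted p = 0.0625 and 0.0451). *SGK2* (0.42) was the fifth, and *SGK3* was lower (-0.57, adjusted p = 0.0766).

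Of 15 sodium pump and sodium channel genes, 9 were tested, and 3 were higher and 2 lower at 5 hours (median log2 fold change -0.13). *SCNN1A*, the alpha subunit of the epithelial sodium channel, was higher by 2.79 (adjusted p = 3.87e-20). The beta subunit of the sodium pump, *ATP1B1*, was lower by a log2 fold change of -0.26 (adjusted p = 0.0657) and the pump's regulator *FXYD5* by -0.71. *SCNN1G* was called higher as well, on 17 counts at most in a library, so that no size is given for it. *FXYD5* had been called higher at 3 hours (0.56, adjusted p = 0.0896) and was not called at 7, 9 or 11 hours (-0.02, -0.40 and 0.31).

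Of 7 calcium pump genes, 5 were tested, and the plasma membrane pumps *ATP2B4* (1.22, adjusted p = 7.26e-11) and *ATP2B1* (-0.71, adjusted p = 3.55e-07) went opposite ways at 5 hours and at each other time from 3 to 11 hours. Of 13 genes of the carbonic anhydrase family, whose active enzymes interconvert carbon dioxide and bicarbonate, 6 were tested. Of these, 1 was higher and 3 lower at 5 hours (median -0.61). *CA9* was higher by 0.86 (adjusted p = 1.62e-05), while the abundant *CA12* had -0.63 (adjusted p = 3.59e-06), *CA8* -0.70 and *CA2*, on 29 counts at most, -2.55. Of 8 scaffold and phosphate handling genes, 6 were tested, and the ezrin gene *EZR* (0.32) and the phosphate exporter *XPR1* (0.32) were higher and *ENPP1* (-0.66), which makes pyrophosphate, lower at 5 hours.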

How the data were processed

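The authors aligned the reads, from stranded libraries of poly-A RNA, to the transcripts of GENCODE by Bowtie, and took the number per transcript from samtools, so the deposited values are raw counts. The placement of reads that match several transcripts and the use of strand in counting are not given in the sources used here, and reads of paralogs, overlapping genes and shared exons may be split. The paper states triplicates, while the labels give 2 replicates. The labels' treatment protocol names 1 hour throughout, and the duration of each sample (1 to 11 hours) was used.

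Counts of 110262 of 119207 transcripts (94.1% of counts) were summed per gene through GENCODE release 29 (GRCh38), and unmatched transcripts stayed as features of their own. edgeR 4.0.16 (R 4.3.3) was run with TMM scaling, filterByExpr over the 12 groups (19897 of 42072 features kept), robust quasi-likelihood F-tests and Benjamini-Hochberg adjustment over all features tested, with a threshold of 0.1. Each time point was fitted by itself, 2 against 2 libraries. A standard error is the absolute log2 fold change over the root of its F. The dex effect over time used 1 fit over 24 libraries, and time without dex the 12 EtOH libraries. The test of 2 against 2 libraries was checked on simulated counts. Levels are TMM-scaled CPM, and lengths are means weighted by counts. Replicates of a group differed by more than sampling noise.

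Genes called at 2 or more consecutive times are given per library at their largest called change, those called otherwise by their fold changes, and the rest by range. SLC12A8 and the extreme values of uncalled genes were named after their values were seen. Values of 3 tested genes of the group are not reported here and not drawn, though the counts include them. The genes and all lists were chosen with earlier results of these data known. Alternatives were DESeq2 1.42.0, its size factors in edgeR, no filter, a mean of at least 1 CPM, a block for the replicate number, 1 fit of all 24 libraries, a threshold of 0.05, the most counted transcript of each gene and leaving out each library. Figures were drawn with matplotlib 3.10.9.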

Additional observations from a re-analysis of the deposited data

Results flagged for a closer look

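The dex effect differed among the 6 time points for 10 of the 39 tested genes in edgeR's quasi-likelihood test of the treatment-by-time terms (Benjamini-Hochberg adjustment over all features). The smallest adjusted p was that of *SLC8B1* (1.18e-05), whose log2 fold change ran from -0.43 at 1 hour to 1.23 at 7 hours. For *SLC4A7* (0.000241) and *SLC4A4* (0.00067) it ran from 0.08 and 0.12 at 1 hour to -1.06 and -1.06 at 5 hours. *SLC12A2* (0.00327) went from 0.16 at 1 hour to -0.83 at 5 hours and -0.26 at 11 hours, and *SLC24A5* (0.0104) from 0.47 at 1 hour to -1.08 at 5 hours and -0.13 at 11 hours. *SLC20A1* (0.0229) was lowest at 5 hours at -0.32. *SLC4A11* (0.0258) went from -0.13 at 1 hour to 1.65 at 11 hours. *SLC12A7* (0.038) was lowest at 9 hours at -0.77, *SLC9A8* (0.042) highest at 7 hours at 0.54 and *SLC9A7* (0.0976) lowest at 5 hours at -0.56.

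Between 5 and 11 hours alone, the effect on *SLC20A1* differed by 0.46 on the log2 scale (standard error 0.12, adjusted p = 0.0568), from -0.32 to 0.14, with the dex libraries below the EtOH libraries at 5 hours and above them at 11 hours.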

How the results depend on the processing

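Of the 49 calls of a gene at a time point, 28 held whichever library was left out, 36 under every other alternative and 25 under all of them, and none changed direction. The 36 include *SLC8A1* at 7 hours, for which only 5 of the other alternatives gave an adjusted p. DESeq2's size factors kept all 49, and DESeq2 itself kept 37 of the 47 for which it gave an adjusted p. At 1 hour, 1 gene was called with the replicate block (*SLC26A2*, log2 fold change 0.35) and 3 without dex replicate 2 (range 0 to 3 over the omissions). At 3 hours, 4 genes in place of 7 were called with DESeq2 and 4 with the most counted transcript (5 to 8 over the omissions). At 9 hours, the 10 calls became 6 without dex replicate 1 and 5 without dex replicate 2 (5 to 15 over the omissions). At 11 hours, the 6 calls became 12 without dex replicate 1 (4 to 12). The counts ran from 10 to 14 at 5 hours and from 8 to 14 at 7 hours. The 10 genes whose effect differed over time were 7 to 16 over the omissions, 16 without dex replicate 1 of 11 hours. The 1 gene that differed between 11 and 5 hours became 2 without a filter, 0 with the most counted transcript and 0 at a threshold of 0.05 (0 to 4, 4 without dex replicate 1 of 11 hours). It was 2 without either dex library of 1 hour, and 0 without dex replicate 2 of 5 hours, EtOH replicate 1 of 5 hours or either EtOH library of 11 hours. The 2 genes that varied with EtOH became 4 without a filter, 1 with the replicate block, 1 with the most counted transcript, 1 with DESeq2 and 0 at a threshold of 0.05 (0 to 5, 5 without EtOH replicate 1 of 9 hours, and 0 or 1 without every other library but EtOH replicate 2 of 9 hours). The cause of these moves was not tested, and the shares of all features called under these settings are not given. The paper describes a paired vehicle control, and whether the replicate numbers mark such pairs is not known. Deviations of libraries with the same number correlated at -0.0588 to 0.135 over features, and a low correlation does not exclude pairing. With the number as a block, 1, 6, 14, 11, 13 and 7 genes were called at 1 to 11 hours, 12 over time and 1 between 11 and 5 hours, and 47 of the 49 calls were kept, those lost being *SLC12A2* at 3 hours and *SLC9A2* at 7 hours. The 24 genes with 10 counts or fewer in every library were not tested, and a difference in them was not detectable at this depth.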
